A study of Mus musculus with 5 samples.

Results

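The genes of ribosome biogenesis and RNA polymerase I were examined in pharyngeal arch tissue of the mouse embryo at E10.5, all of it wild type. The members were 40 genes listed by name, and every probe set annotated to exactly 1 of them was taken. Of the 40 genes, 38 were measured, by 70 of the 20380 single-gene probe sets on the array, which cover 12393 genes. Nob1, a factor of small-subunit maturation, and Dkc1, the pseudouridine synthase of box H/ACA particles, were not analysed here because the annotation used gave no single-gene probe set for them. The study held 5 samples and 1 group, each an individual isolate, and it had no control group or treatment. All 5 came from wild-type embryos of the strain 129P2/OlaHsd, which had been crossed back to C57BL/6 for 2 generations. The labels name the material as tissue containing the pharyngeal arches and the second heart field, and do not say whether the isolates shared a litter. From each isolate, 10 ng of total RNA was amplified with NuGEN Ovation kits and hybridised to an Affymetrix Mouse Genome 430A array.

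Ribosomes are assembled in the nucleolus. RNA polymerase I transcribes the ribosomal DNA into a long precursor, small nucleolar ribonucleoproteins (snoRNPs) modify it, and a large set of processing factors folds and cuts it into the RNAs of the small and the large subunit. Cranial neural crest cells, which fill the pharyngeal arches, are known to be sensitive to shortfalls in this pathway: variants of TCOF1, POLR1B, POLR1C and POLR1D cause Treacher Collins syndrome, a disorder of the facial bones that form from the first arches.

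Detection could be judged only against signals of genes not expected in an embryo. For each array a background level was set at the 95th percentile of the signals of 254 probe sets of 210 genes from families restricted to sensory neurons, hair, skin, adult glands, lymphocyte and natural killer cell receptors, and germ cells. It was a signal of 17.6, 15.5, 18.9, 22.8 and 23.4 in replicates 1 to 5, against a median signal of all probe sets between 28.1 and 32.2. Values are signals in the scaled units of the deposited table, given for replicates 1 to 5 in that order, and then as mean ± SD with n = 5. The excess over background is the mean log2 signal minus the level of the same array, with limma's SE. A probe set was called above background at an adjusted p below 0.05 (limma, one-sided), and a gene was called if any of its probe sets was. Signals of different probe sets depend on the probes and give no order of transcript levels between genes.

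Markers of the tissue were checked in the same way. Of the arch mesenchyme and neural crest markers 8 of 9 were called, of the pharyngeal endoderm and ectoderm markers 6 of 7, of the cell cycle markers 9 of 9 and of the neuronal markers 7 of 7. Hand2 of the arch markers and Pax9 of the endoderm and ectoderm markers were not called. Of 7 second heart field markers only 3 were called, Isl1, Mef2c and Foxc2. Fgf8, Fgf10 and Nkx2-5 lay below the level in all 5 samples. Tbx1 was not called either, with an excess of 0.45 (adjusted p = 0.0992). Markers of other cells were called too: 4 of 5 erythroid, 4 of 6 cardiac muscle and 2 of 5 liver and yolk sac endoderm markers. Afp, Alb and Apoa1 were not called, yet all lay above the level in replicate 5, at 198, 44.4 and 67.4. In such bulk samples, fewer cells of a type and less RNA per cell cannot be told apart. Replicate 4 stood apart: Xist read 916 there against 1.28 to 26.3 in the others, Eif2s3y read 20.1 against 769 to 968, and the summed signals of neuronal and erythroid markers were the lowest of the 5.

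Nearly all members gave signals above background in every sample. Of the 38 genes, 37 (97.4%) were called, while 53.9% of all 12393 genes were. Of the 70 probe sets 65 (92.9%) were called, while 50.9% of all single-gene probe sets were. The 37 genes lay above the level in each of the 5 samples on their brightest probe set. The median excess was 4.38 log2 units over the 38 members and 0.86 over all genes. All members of 5 roles were called: the 5 nucleolar proteins, the 3 measured box C/D and 3 box H/ACA proteins, the 8 small-subunit factors and the 11 large-subunit factors. Of the 8 genes of RNA polymerase I transcription 7 were called, and Polr1b was not.

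**Figure D1:**
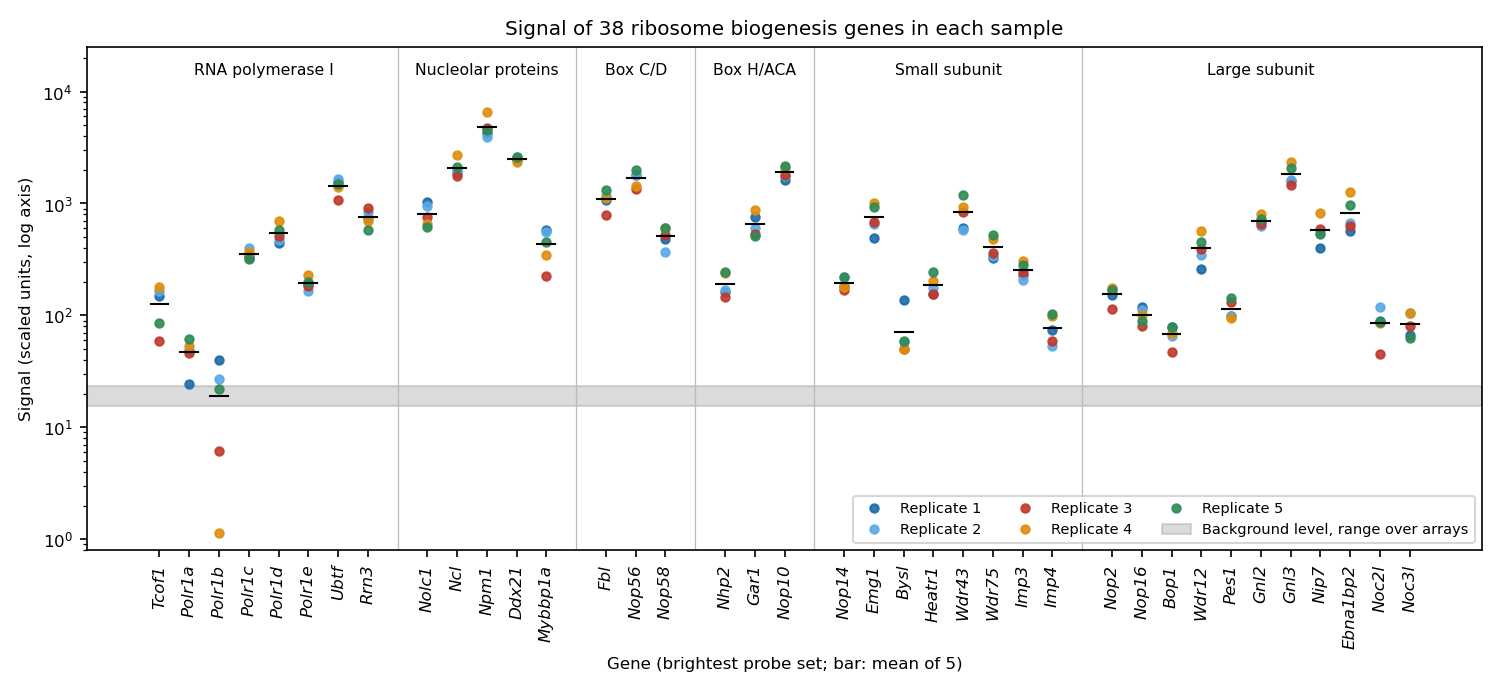
Signals of the 38 measured genes on a log axis, in scaled units, with 1 point per sample and a bar at the mean of 5, grouped by role. The grey band spans the background level of the 5 arrays, from 15.5 to 23.4. All 5 points lie above the level of their array for every gene except Polr1b, and heights of different genes are not comparable.

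The promoters of these genes show which short elements they share. RefSeq windows of 300 bases (GRCm38.p6), from 250 before to 50 after the transcription start, were given for 35 of the 40 members and not for Tcof1, Npm1, Fbl, Bop1 and Gnl2. They were searched on both strands for 5 hexamers, none of which contains another. The hexamer CGGAAG is a core of the sites that ETS factors bind. CACGTG is the E-box, bound by Myc with Max, and CACGCG is a variant of it. TATAAA marks the TATA box, known from core promoters of many tissue-restricted genes. GGGCGG is the GC box, bound by Sp factors. The ETS core was present in 20 of the 35 windows (57.1%), against 67.3% of 98 other ribosome biogenesis genes, 39.1% of 5474 genes above background and 18.8% of all 27025 windows. In 12 of the 20 members it lay upstream of the start. These 8 stretches are examples from those 12, with the hexamer in capitals. They are read 5′ to 3′ on the strand of the gene, and for Wdr12 the hexamer is shown as its reverse complement.
Polr1c, 41 bases before the start, chr17:46248061-46248106, minus strand: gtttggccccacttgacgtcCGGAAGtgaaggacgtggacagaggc
Ddx21, 24 bases before the start, chr10:62602299-62602342, minus strand: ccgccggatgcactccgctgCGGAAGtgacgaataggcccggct
Mybbp1a, 56 bases before the start, chr11:72441251-72441296, plus strand: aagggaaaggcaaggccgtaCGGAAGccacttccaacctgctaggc
Nhp2, 22 bases before the start, chr11:51619731-51619772, plus strand: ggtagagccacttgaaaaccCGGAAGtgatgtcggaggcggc
Emg1, 43 bases before the start, chr6:124712196-124712241, minus strand: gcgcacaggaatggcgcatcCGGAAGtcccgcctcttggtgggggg
Heatr1, 15 bases before the start, chr13:12395340-12395374, plus strand: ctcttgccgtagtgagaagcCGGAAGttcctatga
Nip7, 102 bases before the start, chr8:107056755-107056800, plus strand: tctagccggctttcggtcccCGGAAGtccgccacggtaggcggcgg
Wdr12, 54 bases before the start, chr1:60098163-60098208, minus strand: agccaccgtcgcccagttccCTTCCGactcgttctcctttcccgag

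The E-box was rarer. CACGTG was found in 6 windows (17.1%), those of Imp4, Mybbp1a, Nop2, Pes1, Rrn3 and Wdr43, against 19.4% of the other ribosome biogenesis genes, 12.1% of genes above background and 8.09% of all windows. In 3 genes it lay upstream of the start, and Rrn3, which brings RNA polymerase I to the ribosomal promoter, held 2 copies there. These 4 stretches show it in capitals.
Rrn3, 48 bases before the start, chr16:13780631-13780676, plus strand: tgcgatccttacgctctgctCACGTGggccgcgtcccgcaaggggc
Rrn3, 215 bases before the start, chr16:13780464-13780509, plus strand: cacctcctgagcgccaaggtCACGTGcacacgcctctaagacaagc
Nop2, 60 bases before the start, chr6:125131803-125131848, plus strand: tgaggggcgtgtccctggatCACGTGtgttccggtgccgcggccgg
Imp4, 121 bases before the start, chr1:34439688-34439733, plus strand: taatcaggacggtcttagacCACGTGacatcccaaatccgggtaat

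CACGCG was present in 13 windows (37.1%), against 31.6% of the other ribosome biogenesis genes and 21.8% of genes above background. GGGCGG was present in 26 (74.3%), close to the 72.3% of genes above background. TATAAA was present in 2 (5.71%), those of Dkc1 and Pes1, against 7.14% of the other ribosome biogenesis genes, 8.59% of genes above background and 15.7% of all windows. A match is a description of letters, and no binding was measured.

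**Figure D2:**
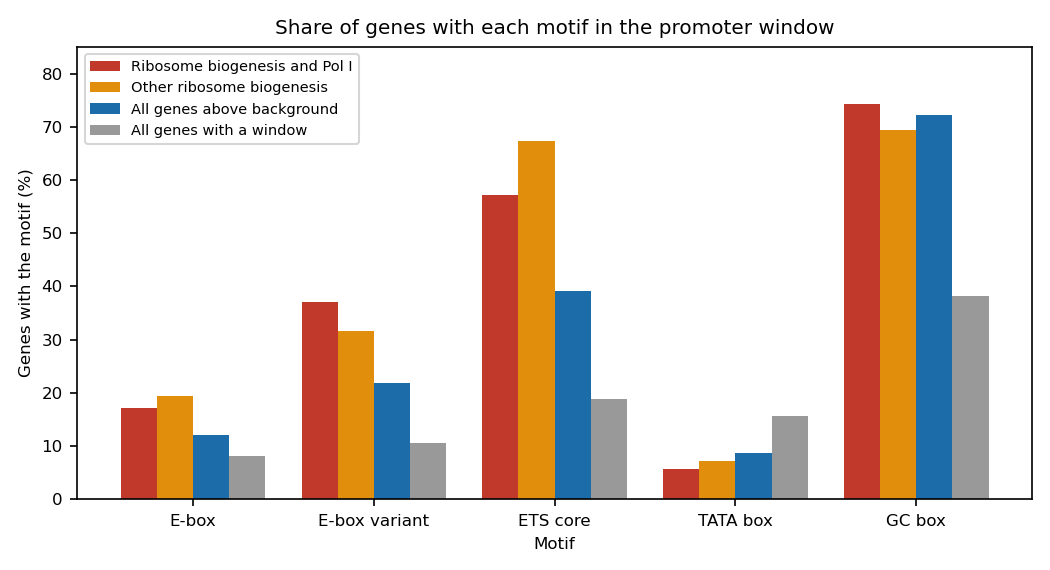
Share of genes, in percent, whose 300-base promoter window holds each of 5 motifs, for the 35 members with a window, 98 other ribosome biogenesis genes, 5474 genes above background and all 27025 genes with a window. The ETS core stands at 57.1% of members, 39.1% of genes above background and 18.8% of all genes, and the TATA box at 5.71%, 8.59% and 15.7%.

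The core of RNA polymerase I transcription was measured by 8 genes. Ubtf, the factor that binds and opens ribosomal DNA, read 1560.0, 1652, 1079, 1397 and 1501 (1438 ± 221). Its excess was 6.20 ± 0.15 log2 units (adjusted p = 2.73e-28), and the lowest of the 5 signals, in replicate 3, was far above background. Another Ubtf probe set read only 23.7 to 38.2, an excess of 0.61 ± 0.24 (adjusted p = 0.0155). Both probe sets were lowest in replicate 3 and highest in replicate 2.

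Rrn3, whose E-box stretches are given above, read 744, 847, 915, 694 and 576 (755 ± 132), with an excess of 5.26 ± 0.17 (adjusted p = 5.32e-25). It was the only one of the 37 genes above the level that was highest in replicate 3, and its samples differed by at most 1.59 times. Polr1d, a small subunit shared by RNA polymerases I and III, read 439, 476, 514, 699 and 578 (541 ± 102), an excess of 4.78 ± 0.16. The other Polr1d probe set, also called, read 70.1, 80.0, 49.9, 80.6 and 116, lowest in replicate 3 and highest in replicate 5. Polr1c, the partner of Polr1d in both polymerases, read 323, 397, 344, 368 and 317 (350.1 ± 33.1), an excess of 4.17 ± 0.17. The Polr1c samples lay within 1.25 times of each other, the narrowest spread among the 8 genes, and those of its other probe set between 165 and 276. Polr1e, the PAF53 subunit, read 189, 166, 184, 230.2 and 197 (193 ± 23.6), an excess of 3.31 ± 0.17, and both of its probe sets were highest in replicate 4.

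Tcof1 encodes treacle, a nucleolar phosphoprotein that works with Ubtf and the polymerase. Its brightest probe set read 149, 166, 58.4, 179 and 86.1 (128 ± 52.5), with an excess of 2.60 ± 0.22 (adjusted p = 1.69e-11). Replicate 4 read 3.06 times replicate 3, and the SD of 0.70 log2 units was the largest among the 37 genes above the level. Its 2 other probe sets read 72.5, 53.8, 24.2, 56.0 and 50.6, and 31.3, 50.6, 34.0, 55.5 and 39.5. Replicate 3 was lowest on 2 of the 3 probe sets and next to lowest on the other, while the highest sample was replicate 4 on 2 of them and replicate 1 on the other.

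The 2 large subunits lay close to background. Polr1a, the largest subunit and the one that holds most of the active site, read 24.6, 48.6, 46.0, 53.4 and 62.2 (46.9 ± 13.9), an excess of 1.21 ± 0.21 (adjusted p = 3.16e-06). Its other probe sets read 37.4, 58.5, 28.5, 46.8 and 54.3, and 50.3, 26.4, 26.8, 18.5 and 58.4, and the last of these was above the level in 4 of 5 samples. The 3 probe sets agreed on no lowest sample. Polr1a was not called with the 99th percentile as the level (excess 0.35, adjusted p = 0.116) or under a broader background pattern that adds 34 probe sets to the level, where its excess was -0.69.

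Polr1b, the other large subunit, was the only member not called. Its single probe set read 39.6, 26.9, 6.19, 1.13 and 22.0 (19.2 ± 15.7), with an excess of -0.82 ± 0.64 log2 units (adjusted p = 1). It was above the level in replicates 1 and 2 and below it in the other 3. Without replicate 4 the excess was 0.065 (adjusted p = 0.743), so its sign rested on that sample and the call did not. A probe set near background gives no measure of how much transcript is present.

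The 5 nucleolar proteins were all called, with a median excess of 6.73 log2 units. Ddx21, an RNA helicase of the nucleolus, read 2514, 2614, 2494, 2331 and 2584 (2507 ± 110.1), an excess of 7.01 ± 0.14 (adjusted p = 6.15e-31). Its 5 samples lay within 1.12 times of each other, and its SD of 0.06 was the smallest of all members. Its second probe set did not share this evenness and read 175, 123, 77.8, 175 and 224. Mybbp1a, a nucleolar protein known to repress ribosomal RNA transcription and to bind Myb, read 577, 556, 226, 343 and 456 (432 ± 148), an excess of 4.40 ± 0.20. Replicate 3 was the lowest sample on both Mybbp1a probe sets, at 226 and at 35.4.

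The remaining 3 nucleolar genes are given because their probe sets differed in pattern, a choice made after their values were seen. Npm1, the abundant histone and ribosome chaperone nucleophosmin, read 4221, 3905, 4762, 6538 and 4535 (4792 ± 1028) on 1 probe set and 3403, 2574, 4244, 2463 and 2791 on the other. Replicate 4 was the highest sample on the former and the lowest on the latter. Ncl, nucleolin, which binds the ribosomal RNA precursor, read 1881, 1966, 1752, 2706 and 2098 (2081 ± 372) on its brightest probe set and 1525, 1563, 1315, 727 and 562 on another. Its other 2 probe sets read 346, 241, 295, 443 and 418, and 439, 491, 414, 342 and 401, so replicate 4 was highest on 2 of 4 and lowest on 1. Nolc1, a chaperone of snoRNPs, read 1022, 949, 750.1, 654 and 612 on its brightest probe set, while its 2 other probe sets had replicate 4 highest, at 372 and at 286.

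**Figure D3:**
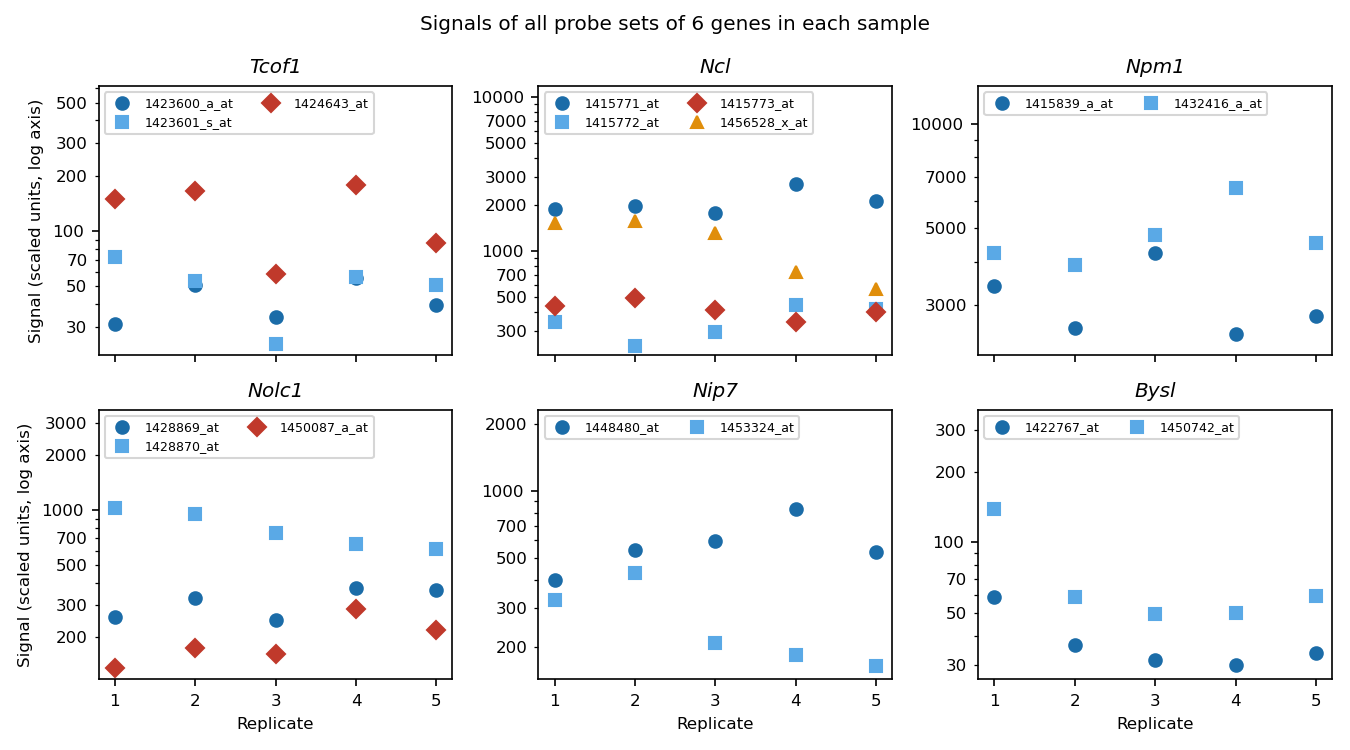
Signals, in scaled units on a log axis, of every probe set of 6 genes by replicate, with 1 symbol per probe set. For Npm1, Ncl, Nolc1 and Nip7 the probe sets of 1 gene order the samples differently, while both Bysl probe sets are highest in replicate 1.

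The box C/D snoRNP proteins, part of the particles that guide 2′-O-methylation of ribosomal RNA, were all called. Nop56, a scaffold of the particle, read 1783, 1779, 1357, 1434 and 2008 (1672 ± 270.4), an excess of 6.41 ± 0.15. Nop58, its partner, read 480.4, 367, 524, 609 and 605 (517 ± 100.02), an excess of 4.71 ± 0.16. The partners were lowest in different samples, Nop56 in replicate 3 and Nop58 in replicate 2. Fbl, fibrillarin, the methyltransferase itself, ranged from 787 in replicate 3 to 1319.9 in replicate 5.

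The box H/ACA proteins, part of the particles that guide pseudouridylation, also stabilise telomerase RNA, and were called in the 3 genes measured. Nop10 read 1634, 1752, 1806, 2095 and 2172 (1892 ± 231), an excess of 6.60 ± 0.14. Nhp2 read 161, 169, 147, 241 and 243 (192 ± 45.9), an excess of 3.27 ± 0.17. On these probe sets both were higher in replicates 4 and 5 than in any other sample. The other Nop10 probe set, also called, read 366, 468, 469.7, 498 and 327, highest in replicate 4 and lowest in replicate 5. The only Gar1 probe set was likewise highest in replicate 4, at 873, and lowest in replicate 5, at 517.

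The 8 measured small-subunit factors were all called, with excesses from 1.75 to 5.37 log2 units. Nop14, a part of the small-subunit processome, read 181, 218, 167, 180.1 and 221 (194 ± 24.6), with the smallest SD of this role, 0.18. Bysl, bystin, needed late in small-subunit maturation, had the largest SD, 0.61. It read 138, 58.4, 49.8, 50.1 and 59.2 (71.1 ± 37.7), an excess of 1.75 ± 0.22 (adjusted p = 6.41e-09). Replicate 1 stood far above the other 4 samples, which lay between 49.8 and 59.2, and the other Bysl probe set was also highest there, at 58.4 against 30.1 to 36.7. Under the broader background pattern the excess of Bysl was -0.15.

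Heatr1, the homologue of yeast Utp10 and needed for ribosomal RNA transcription and processing, read 155, 175, 154, 201 and 245 (186 ± 38.1), an excess of 3.24 ± 0.17. A dim Heatr1 probe set read 7.10, 5.23, 12.8, 12.9 and 13.3 and was below the level in every sample. Imp4, which joins the U3 snoRNA to the precursor together with Imp3, read 73.7, 53.6, 59.6, 99.7 and 102 (77.7 ± 22.4), an excess of 1.95 ± 0.19 (adjusted p = 1.28e-11). Its dim probe set read 29.2, 15.8, 9.55, 3.32 and 17.0, and its lowest sample, replicate 4, was among the highest on the bright probe set. Under the broader background pattern the excess of Imp4 was 0.05, which did not pass. Wdr43, Wdr75, Emg1 and Imp3, which act in or beside the same processome, each had replicates 4 and 5 as their highest samples on the brightest probe set. Wdr43 ranged from 581 to 1201, Wdr75 from 328 to 518, Emg1 from 492 to 1019 and Imp3 from 207 to 305.

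The 11 large-subunit factors were all called, with excesses from 1.79 to 6.53 log2 units. Gnl2, a GTPase of the export-bound large subunit, read 682, 625, 661, 811 and 723 (700.3 ± 71.3), an excess of 5.17 ± 0.15 and the smallest SD of this role, 0.14. Noc2l, a nucleolar protein that is also known as a histone acetyltransferase inhibitor, had the largest, 0.51. It read 88.4, 119, 45.3, 85.5 and 87.4 (85.1 ± 26.2), an excess of 2.07 ± 0.21 (adjusted p = 3.39e-11), and replicate 3 was the low sample. Noc2l and its relative Noc3l were not called under the broader background pattern, with excesses of 0.17 (adjusted p = 0.580) and 0.18 (adjusted p = 0.518).

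Pes1, Bop1 and Wdr12 form the PeBoW complex, which is needed to mature the RNAs of the large subunit. Pes1 read 99.5, 99.2, 132, 94.5 and 143 (114 ± 22.3), an excess of 2.53 ± 0.18 (adjusted p = 7.44e-15). Its dim probe set read 29.7, 22.2, 33.7, 35.3 and 13.1, and was not called (excess 0.38 ± 0.27, adjusted p = 0.160). Replicate 4 was the lowest sample on the bright Pes1 probe set and the highest on the dim one. The complex had no common order of samples on the brightest probe sets. Bop1 was lowest in replicate 3, at 47.2, and highest in replicate 1, at 79.2. Wdr12 was lowest in replicate 1, at 259.6, and highest in replicate 4, at 564. The other Wdr12 probe set, also called, read 183, 192, 216, 212 and 202, lowest in replicate 1 and highest in replicate 3. Bop1 fell to an excess of -0.11 under the broader background pattern.

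Ebna1bp2, a large-subunit assembly factor, read 570.2, 674, 632, 1258 and 976 (822 ± 289.6), an excess of 5.34 ± 0.16 (adjusted p = 5.39e-26). Replicate 4 was 2.21 times replicate 1, the largest upward departure from its own mean of the 37 genes in that sample. Its x_at probe set read 5.94, 6.77, 2.61, 6.60 and 0.515, below the level in all 5 samples. The brightest probe sets of Gnl3 (nucleostemin), Nip7 and Nop2 were also highest in replicate 4, at 2354, 828 and 176. The other Nip7 probe set, described after its values were seen, read 326, 429.5, 209, 184 and 165 and did not share this high. Nop16 ranged from 79.8 to 119 and Noc3l from 62.5 to 105.

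Probe sets of 1 gene often ordered the samples differently. Of the 26 genes with several probe sets, all were called in 22, and calls differed in Heatr1, Imp4, Pes1 and Ebna1bp2. Among the 22 genes, the highest sample was the same on all probe sets in 5 (Polr1e, Ubtf, Bysl, Wdr43 and Wdr75). The lowest sample was the same in 5 (Ubtf, Mybbp1a, Fbl, Nop56 and Wdr12). The highest sample on 1 probe set of a gene was therefore shared by its other probe sets in a minority of these genes, and so was the lowest. The same count was not made over all genes, so this is no trait of the members.

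No member passed a test for unusual spread between samples. In a test of each gene's variance against the trend of variance on signal (limma's robust trend, over 7401 genes with a mean above the level), 0 of 37 members passed at an adjusted p below 0.05, and 0.0811% of all genes did. At an unadjusted p below 0.05 there were 3 members (8.11%) and 5.58% of all genes. They were Tcof1 (adjusted p = 0.789), Mybbp1a (adjusted p = 0.846) and Ebna1bp2 (adjusted p = 0.889). The median SD over the samples was 0.29 log2 units for the members and 0.31 for all genes. The median ratio of a gene's variance to the trend was 1.24 for members and 0.893 for all genes. The highest of the 5 signals was a median of 1.65 times the lowest.

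**Figure D4:**
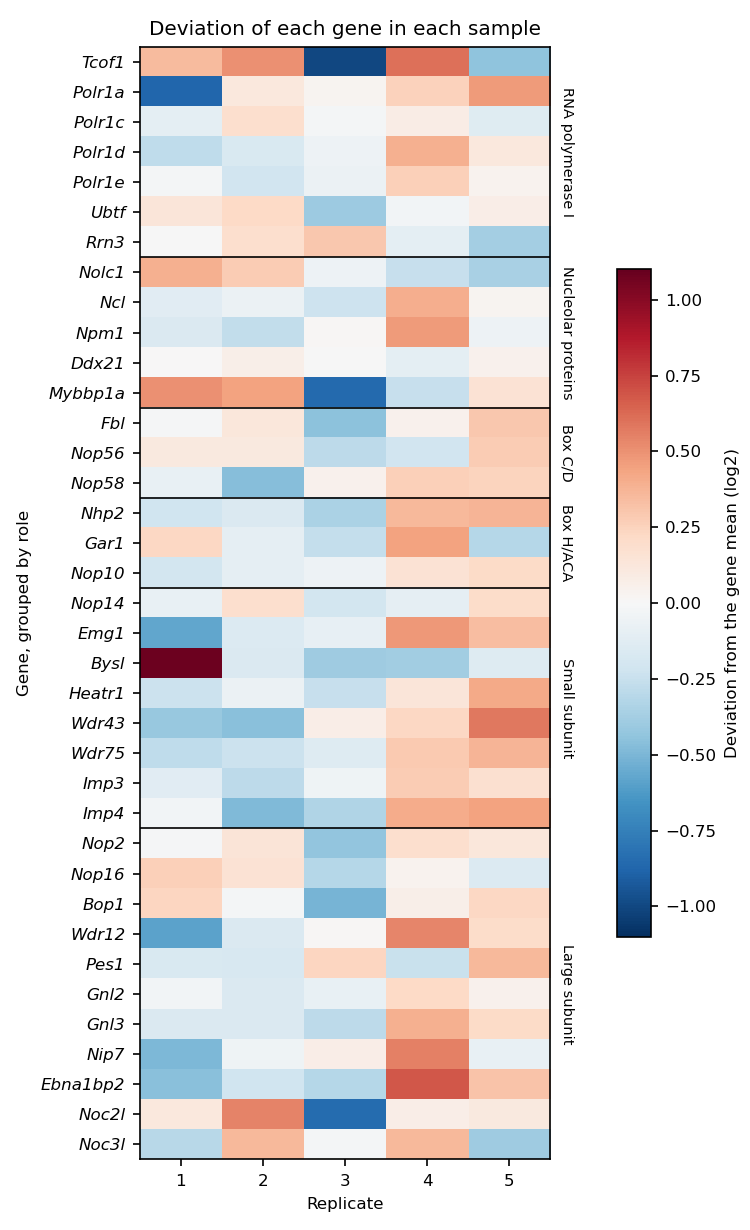
Deviation of each of 37 genes from its own mean in each replicate, in log2 units (red above, blue below), for the brightest probe set and grouped by role. Replicate 3 is mostly blue, led by Tcof1 at -1.01, and replicate 4 mostly red, led by Ebna1bp2 at 0.68; Bysl in replicate 1 stands at 1.08.

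Small departures of single genes pointed the same way in some samples. The mean deviation of the 37 members from their own means was -0.07, -0.02, -0.20, 0.19 and 0.11 log2 units in replicates 1 to 5. For all 7401 genes it was 0.03, 0.01, -0.05, -0.03 and 0.04. Replicate 3 was thus the low sample and replicate 4 the high one, and the 2 were 0.39 log2 units apart for the members while the span over all genes was 0.09. In replicate 3, 29 of 37 members (78.4%) lay below their own mean, against 52.5% of all genes. In replicate 4, 9 members (24.3%) did, against 50.6%. These are descriptions of 5 samples, and no test was made of them.

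The largest departures in replicate 3 were those of Tcof1 (-1.01), Mybbp1a (-0.85), Noc2l (-0.84) and Bop1 (-0.51). In replicate 4 they were those of Ebna1bp2 (0.68), Tcof1 (0.61), Nip7 (0.55) and Wdr12 (0.53). The roles did not share 1 pattern. On the brightest probe sets, large-subunit factors were highest in replicate 4 (mean 0.26, with 7 of 11 genes highest there). Small-subunit factors were highest in replicate 5 (mean 0.30, with 5 of 8 genes highest there). The other called probe sets of Wdr12, Gnl2 and Nip7 were not highest in replicate 4. Those of Wdr43 and Wdr75 were highest in replicate 5. The high of the large-subunit factors in replicate 4 thus depended in part on the choice of probe set. Of all 7401 genes, 21.5% were highest in replicate 4 and 23.9% in replicate 5. The nucleolar proteins were lowest in replicate 3, at -0.23, and highest in replicate 1, at 0.12. Every role had a negative mean in replicate 3, from -0.17 to -0.23.

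Members with CGGAAG in the promoter window (20 genes) had mean deviations of -0.12, -0.00, -0.19, 0.23 and 0.08. The 12 with a window and no CGGAAG had -0.05, -0.07, -0.15, 0.08 and 0.19. Both groups were lowest in replicate 3, and they differed in whether replicate 4 or 5 was highest. No test was made of this difference.

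**Figure D5:**
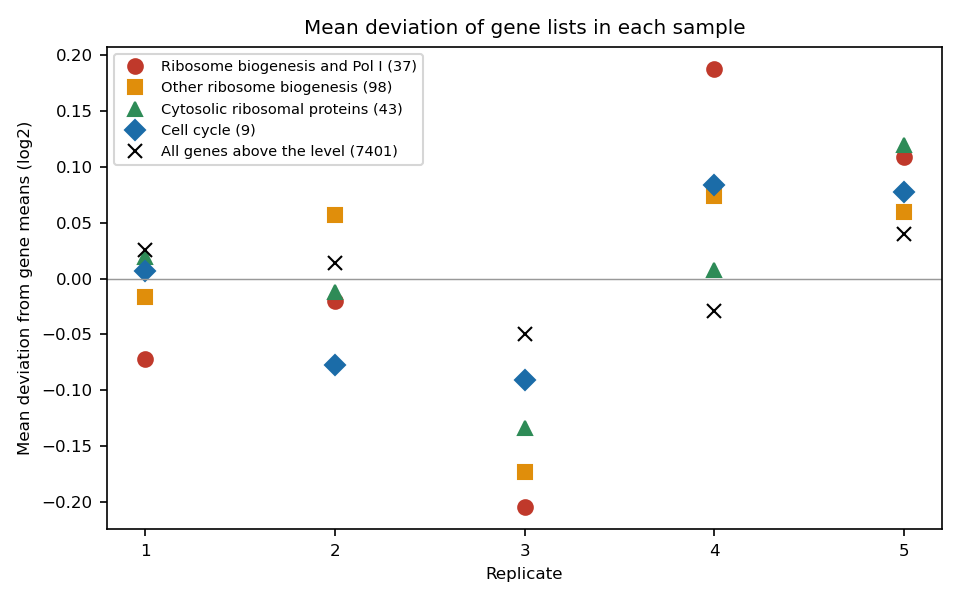
Mean deviation from gene means, in log2 units, of 5 gene lists in each replicate, with the number of genes in parentheses. The ribosome biogenesis and RNA polymerase I genes span -0.20 in replicate 3 to 0.19 in replicate 4, and all 7401 genes above the level stay between -0.05 and 0.04.

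Other readouts also differed between the samples. Neuronal markers, 7 of 7 called, summed to 3956, 3261, 4345, 2465 and 3748, and 6 of the 7 were lowest in replicate 4. Erythroid markers, 4 of 5 called, summed to 10788, 11268, 13782, 8418 and 16825, with Alas2 not called, and all 5 were lowest in replicate 4. Cell cycle markers, 9 of 9 called, summed to 13318, 13053, 13844, 15336 and 14868, and the sum was highest in replicate 4. By gene, 3 of the 9 were highest in replicate 4, 3 in replicate 1 and 3 in replicate 5. Their mean deviation was 0.08 log2 units in replicate 4 and also in replicate 5. The sums of these 3 lists had an extreme in replicate 4, the members' high sample. Replicate 4 also stood apart in Xist and Eif2s3y, and the part of that difference in the members' pattern was not tested.

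Other marker lists had an extreme in replicate 3 or 5. Cardiac muscle markers, 4 of 6 called and Myh6 below the level in every sample, summed to 369, 455, 314, 354 and 474, lowest in replicate 3 and highest in replicate 5. Arch mesenchyme and neural crest markers, 8 of 9 called, summed to 6348, 5078, 4936, 5344 and 5786, also lowest in replicate 3. Liver and yolk sac markers, 2 of 5 called, summed to 427, 310.1, 555, 154 and 1011, highest in replicate 5. The low sum in replicate 4 was that of Ttr, which read 34.4 there against 253 to 508 in the others. Apoa2, the other called marker, read 47.4 in replicate 4 and was higher only in replicate 5, at 194. Ttr, which carries thyroid hormone and retinol-binding protein, passed the variance test (adjusted p = 0.00781). The low of the members in replicate 3 and the high of the small-subunit factors in replicate 5 fell in samples where some of these sums had an extreme. Every list has a highest and a lowest among 5 samples, so a shared extreme by itself shows no link. Second heart field markers summed to 1642 to 2332, lowest in replicate 4, and endoderm and ectoderm markers to 968 to 1187, lowest in replicate 5. These sums follow the brightest genes. By mean deviation the former were lowest in replicate 5 (-0.35, 4 genes above the level) and the latter in replicate 4 (-0.15, 7 genes). The part of any of these cells in the members' pattern was not tested.

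The ribosomal RNA itself was read only by control probe sets on the array. The 18S control near the middle of the transcript read 3618, 3465, 3163, 4463 and 3135. The 5′ control read 43.4, 46.0, 60.8, 123 and 35.9, and the 3′ control 43.4, 55.7, 81.4, 146 and 64.9. All 3 were highest in replicate 4, the sample in which the members' mean was also highest, while their low samples differed from the members'. The labels' protocols do not say how much ribosomal RNA is carried through the amplification, and the part of this signal in the pattern was not tested. The 3′ to 5′ ratio of the actin controls, a sign of RNA quality, was 4.34, 3.36, 4.58, 4.82 and 4.69, and was highest in replicate 4. The same ratio of the Gapdh controls was 3.73, 2.78, 3.12, 2.89 and 2.89, highest in replicate 1. The part of RNA quality in the pattern was not tested.

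Without replicate 4, replicate 3 was still the lowest (-0.20) and replicate 5 the highest (0.16). Without replicate 3, the lowest was replicate 1 (-0.11) and the highest still replicate 4 (0.13). With the mean of all probe sets of a gene in place of the brightest, replicate 3 stood at -0.20 and replicate 4 at 0.15.

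Other genes of the pathway were taken from lists of 122 genes, of which 99 were measured. Of these 94 (94.9%) were called, and their median excess was 3.08 log2 units. They were 8 of 10 further genes of RNA polymerase I transcription, 34 of 36 small-subunit and 37 of 38 large-subunit factors, 5 of 5 snoRNP genes and 10 of 10 genes of the exosome, which trims the precursor RNAs. The 5 genes not called were Taf1c, Ttf1, Rrp9, Rrp12 and Nle1. Taf1c, part of the selectivity factor of RNA polymerase I, read 22.1 ± 6.54 (adjusted p = 0.597), and Ttf1, which ends ribosomal DNA transcription, read 20.04 ± 7.40 (adjusted p = 0.954), both within the range of background.

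From each list 2 genes are given, those with the largest excess over background; their choice depends on the probes and is no order of transcript levels. Baz2a, the large subunit of the nucleolar remodelling complex that silences ribosomal DNA, read 353 ± 98.1 (excess 4.14), and Taf1d, of the selectivity factor, read 264 ± 11.6 (excess 3.76). Utp11 and Dcaf13, of the small-subunit processome, read 1266 ± 362 (excess 5.98) and 1243 ± 248 (excess 5.97). Pa2g4, a nucleolar growth regulator, read 1977 ± 338 (excess 6.65), and Senp3, a SUMO protease that acts on large-subunit factors, read 1728 ± 51.0 (excess 6.48). All of these lay far above the level of every array.

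Ruvbl1 and Naf1, which assemble snoRNPs, read 347 ± 86.5 (excess 4.12) and 288 ± 53.0 (excess 3.87). Exosc9, a core exosome subunit, and Mtrex, its helicase, read 443 ± 110.0 (excess 4.48) and 428 ± 55.7 (excess 4.45). None of the 98 pathway genes with a mean above the level passed the variance test. Their mean deviations were -0.02, 0.06, -0.17, 0.07 and 0.06, so the low in replicate 3 was also present in these genes, while replicates 2, 4 and 5 stood at 0.06 to 0.07. The 43 cytosolic ribosomal protein genes had 0.02, -0.01, -0.13, 0.01 and 0.12, lowest in replicate 3 and highest in replicate 5.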

How the data were processed

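Gene expression was measured on 5 arrays of 1 group. The deposited values were linear intensity values, 1 per probe set, made by the authors with GCOS per the submitters' processing notes. Its version and settings were not given in the sources used here. Each array had a mean signal of 150.1 once 2% of probe sets were trimmed at either end, and no further normalization was applied. The table held 22690 probe sets: 64 controls, 20380 with 1 gene, 691 with several and 1555 with none in the platform annotation. Symbols were updated through RefSeq, which matched 20351.

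Signals were floored at 1 and log2-transformed. A gene was represented by its brightest probe set. Detection was an intercept fit on log2 signal minus the background level with limma 3.58.1 (R 4.3.3), with trend and robust options and Benjamini-Hochberg adjustment over all 20380 probe sets. Variance was tested by an F test against limma's robust trend over 7401 genes. The detection fit and the variance test were tested on simulated data, and the other steps were not. Intervals that need counts cannot be given for arrays, and 5 arrays limit the precision. The p-values measure the spread between these samples only, which may be technical. All labels carry the same run code, so no batch could be tested.

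The members and lists were chosen with earlier results of these data known. Signals in every sample are given for all RNA polymerase I genes, for the called member with the largest and smallest SD in each other role, for members not called and for bright and dim probe sets that differ in call; genes named outside this rule are stated as such or given by range. Promoter windows came from RefSeq tables (GRCm38.p6). Proteins were not analysed here.

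The alternatives were a broader background name pattern that adds 34 probe sets, among them those of widely expressed casein kinases and interferon receptors, the 90th and 99th percentile, the mean of all probe sets, plain probe sets, quantile normalization, a floor of 16, no trend or robust option, no filter on low signals, and leaving out each replicate.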

Additional observations from a re-analysis of the deposited data

Results flagged for a closer look

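The signal of Bysl, bystin, was 138 in replicate 1 and 49.8 to 59.2 in the other 4 samples. The gap to the nearest sample was 0.83 of the whole range on the log2 scale, above Dixon's critical value of 0.71 for 5 samples. This was 1 of 42 values tested in this way, and chance flags about 1 in 20 such groups. The other Bysl probe set was also highest in replicate 1, at 58.4 against 30.1 to 36.7. The arch mesenchyme markers, 8 of 9 called, were highest in the same sample, with a summed signal of 6348 against 4936 to 5786, and their part in the Bysl signal was not tested.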

How the results depend on the processing

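The number of members called was 37 under all alternatives run except 3: the 99th percentile (36 of 38, 94.7%), the broader background pattern (31 of 38, 81.6%) and plain probe sets (33 of 34, since 4 genes have none). The broader pattern raised the level to 59.7 to 82.5 and lowered the count of all genes called from 6679 to 4177 (33.7%). It turned the excess of Polr1a (-0.69), Bysl (-0.15) and Bop1 (-0.11), and Imp4 (0.05), Noc2l (0.17) and Noc3l (0.18) no longer passed. The excess of Polr1b was 0.22 with a floor of 16 (adjusted p = 0.269) and between -1.31 (without replicate 1) and 0.065 (without replicate 4) when each replicate was left out, and it passed under no alternative run. With plain probe sets 43 member probe sets were called, since fewer exist. Leaving out each replicate gave 6516 to 6736 genes called in all and 37 members each time. The variance test called 0 members under every alternative it was run for. Replicate 3 had the lowest mean deviation under every alternative that kept it; replicate 4 had the highest except without a filter on low signals, where Polr1b entered with a signal of 1.13 in replicate 4 and replicate 5 was highest (0.13), and where it was left out.

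No paired analysis was possible because the samples form 1 group. Signals near the background level, as for Polr1a and Polr1b, set a limit on what this array can show, and not being called does not show that a gene is silent. The level itself rests on genes assumed silent in this tissue, and its error is not in the SE.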
